A study of Rattus norvegicus with 12 samples.

Results

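Expression of 8 genes known for their use by the epithelium of the choroid plexus was examined in punches of the rat central amygdala (CeA): *Ttr*, *Enpp2*, *Aqp1*, *Sostdc1*, *Kl*, *Folr1*, *Clic6* and *Otx2*. They were taken by gene name from the 37209 genes of the count table, and all 8 were found. Of these, 7 had counts in at least 1 rat, and 5 passed the filter on low counts and were tested. The study compared wild type male Sprague Dawley rats, 14 to 16 weeks old, after chronic intermittent ethanol (CIE) with air-exposed Control rats, 6 per group and 1 library per rat. The CIE group had breathed ethanol vapor for 14 h and air for 10 h of each day over 5 to 7 weeks and was killed when the last exposure ended, while the Control group had been kept the same way in air alone. Rats were housed 3 per cage, and the tissue was a punch of 1 mm diameter from 1 hemisphere. CIE rats bear the numbers 1 to 6 and Control rats 7 to 12, which makes no pairs across the groups, so anything that follows this order cannot be told apart from CIE.

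The choroid plexus is a folded, vascular tissue inside the brain ventricles whose epithelium secretes cerebrospinal fluid and moves hormones, vitamins and ions between blood and fluid. It is not part of the CeA. Several of the 8 genes are not limited to this epithelium in the brain. *Enpp2* is also made by myelinating oligodendrocytes, *Aqp1* by red cells and some vessels, and *Kl* by some neurons, and the ventricle walls beside the plexus are lined by ciliated ependymal cells.

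Total counts were 61978486 to 78441691 for CIE rats and 39082548 to 95647601 for Control rats. Levels are given as CPM, which are counts scaled to the size of each library after TMM correction, and 1 count stood for 0.0104 to 0.0258 CPM depending on the rat. Of 20944 genes tested with edgeR's quasi-likelihood F test, 76 (0.363%) differed between the groups at 5% FDR, and 1740 (8.31%) did so at a nominal *p* value below 0.05. These shares are the background for every count of listed genes given below. All 10 listed marker genes of CeA neurons, among them *Prkcd*, *Sst* and *Crh*, were detected in the punches. Markers of cortical glutamatergic neurons summed to between 9.26 and 415 CPM in CIE rats and between 11 and 155 CPM in Control rats, so the level of these markers varied widely between punches.

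*Ttr* encodes transthyretin, the carrier of thyroxine and of the retinol-binding protein, and is the defining transcript of the choroid plexus epithelium. It had 0 counts in all 12 rats. A count of 0 allows up to 3 counts, which is 0.0312 to 0.0775 CPM in a rat and 0.00366 CPM over all 12 rats, by counting error only. The 0 was not that of *Ttr* alone. Among the 10 protein-coding genes nearest to *Ttr* in the order of the RefSeq rat annotation (assembly GRCr8), 6 were also at 0 in every rat, namely *Dsg3*, *Dsg2*, *B4galt6*, *LOC102551486*, *Rnf125* and *Rnf138*. *Mep1b*, the next gene on, was at 0 as well. *Trappc8*, in the middle of this run, had 1710 counts over the 12 rats.

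Further out, *Klhl14* had 5525 counts, and *Aqp4* and *Mapre2*, 10 and 12 genes away from *Ttr*, had 315482 and 249929. Over the 16631 protein-coding genes that could be placed in this order, 886 (5.33%) were at 0 in all 12 rats. Of the genes at 0, 457 of 882 (51.8%) had a gene at 0 next to them, against 1033 of 15705 (6.58%) of the genes with counts. Genes that nearly every cell uses were not all counted either, since *Fth1*, the ferritin heavy chain, was listed at 0 in every rat, with 4 of its 10 nearest genes also at 0. How the table came to hold runs of genes at 0 was not tested. The level of *Ttr* in these punches is therefore not known from this table, and a 0 here is not a reading of how much choroid plexus a punch held. For *Enpp2*, *Aqp1*, *Sostdc1*, *Kl*, *Folr1* and *Clic6*, none of the 10 nearest genes was at 0, and for *Otx2* 1 was, the olfactory receptor gene *Olr1610*.

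**Figure D1:**
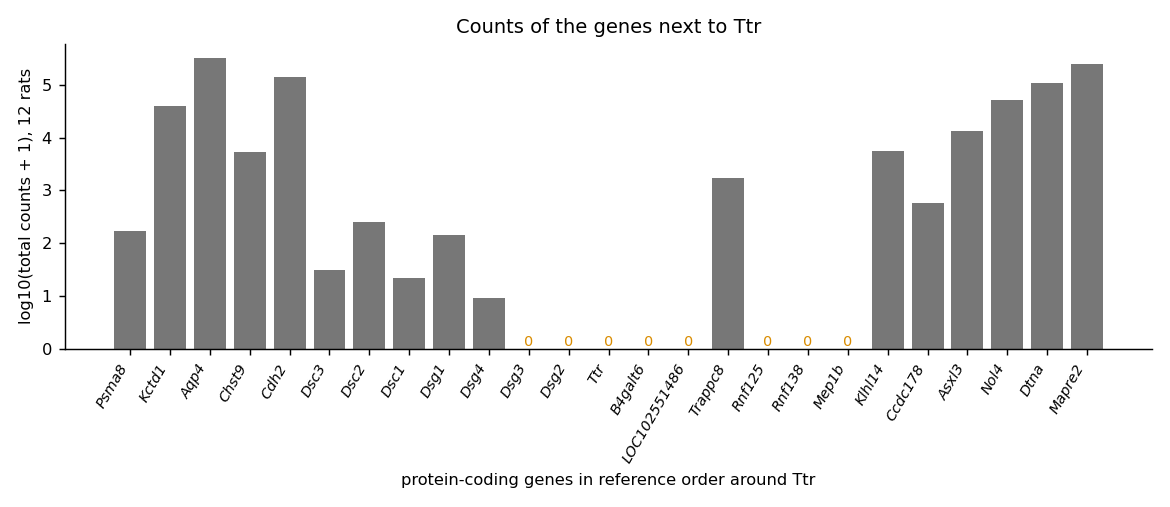
Total counts over 12 rats, as log10(counts + 1), of the protein-coding genes in reference order on either side of *Ttr*, with a 0 printed where no rat had a count. *Ttr* stands inside a run of genes at 0 that is broken by *Trappc8* (1710 counts), while *Aqp4* and *Mapre2* on its outer sides had 315482 and 249929 counts.

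The genes that act with transthyretin were mostly measurable. Of 14 listed genes of thyroid hormone and retinol handling, 13 were tested, 1 rose and 1 fell at a nominal *p* value below 0.05, none passed 5% FDR, and the median log2 fold change was 0.21. The thyroxine transporter *Slco1c1* fell from 76.8 ± 12.5 CPM in the Control to 58.5 ± 5.21 CPM in the CIE group (SD, n = 6 each, log2 fold change -0.39, SE 0.10, FDR 0.164). The thyroid hormone receptor *Thrb* rose from 49.1 ± 4.54 to 60.4 ± 13.9 CPM (log2 fold change 0.30, SE 0.13, FDR 0.558). The thyroid hormone-binding protein *Crym* was listed at 0 in every rat, and 8 of its 10 nearest genes were at 0 too.

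*Enpp2* encodes autotaxin, the secreted enzyme that makes lysophosphatidic acid from lysophosphatidylcholine. Its lowest, median and highest levels were 89.2, 135 and 209 CPM among CIE rats and 130, 194 and 238 CPM among Control rats. The groups overlapped through CIE rat 6, which was the highest of its group at 209 CPM, and Control rat 12, which was the lowest of its group at 130 CPM. CIE rats 3 and 4, at 89.2 and 103 CPM, lay below every Control rat. The mean fell by 28.9%, from 190 ± 35.5 to 135 ± 41.5 CPM (SD, n = 6 each, log2 fold change -0.49, SE 0.18). The difference passed the nominal threshold (edgeR *p* = 0.0178, two-sided exact permutation test of the means *p* = 0.0476) but not 5% FDR (0.461). It stayed past the nominal threshold with any of the 12 rats left out, the lowest FDR being 0.0807 without CIE rat 6. In a bulk punch, fewer cells of a type and less RNA per cell cannot be told apart, here or in any result that follows.

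Markers of myelinating oligodendrocytes moved with *Enpp2*. Of 13 listed markers tested, 11 fell in the CIE group at a nominal *p* value below 0.05, none rose and none passed 5% FDR, with a median log2 fold change of -0.56 beside 0.00 over all genes tested. None of the 13 was at 0, and their summed level lay between 5833 and 14182 CPM among CIE rats and between 8929 and 16737 CPM among Control rats. *Ugt8*, which makes myelin galactolipid, fell from 188 ± 39.9 to 96.7 ± 31.2 CPM (log2 fold change -0.96, SE 0.20, FDR 0.0727). *Cldn11*, the tight junction protein of myelin, fell from 408 ± 79.9 to 239 ± 73.6 CPM (log2 fold change -0.77, SE 0.19, FDR 0.153).

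Over the 12 rats the log2 CPM of *Enpp2* followed the mean log2 CPM of the myelin markers closely (Pearson's r = 0.99, Spearman's rho = 0.97, permutation *p* = 1e-05 and 2e-05, the first being the smallest that the permutations can give, adjusted *p* = 0.00011 and 0.00022 over 11 relations). The r was 0.99 without CIE rats 3 and 4, the rats farthest from the median, and 0.99 with the group means removed. Taken by group, r was 0.99 over the 6 CIE rats (exact permutation *p* = 0.00417) and 0.98 over the 6 Control rats (exact permutation *p* = 0.00833). Control rat 12, the lowest Control rat for *Enpp2*, was also the lowest for the myelin markers (mean log2 CPM 7.85), and CIE rat 6, the highest CIE rat for *Enpp2*, was the highest of its group (8.57). Among all genes tested, those most like *Enpp2* over the 12 rats included *Mog*, *Fa2h*, *Opalin* and *Gltp* (r 0.98 to 0.99), of which *Mog* and *Opalin* encode myelin proteins and *Fa2h* an enzyme of myelin lipid synthesis. With the myelin mean as a covariate, the log2 fold change of *Enpp2* was -0.0051 (SE 0.062, FDR 0.986).

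**Figure D2:**
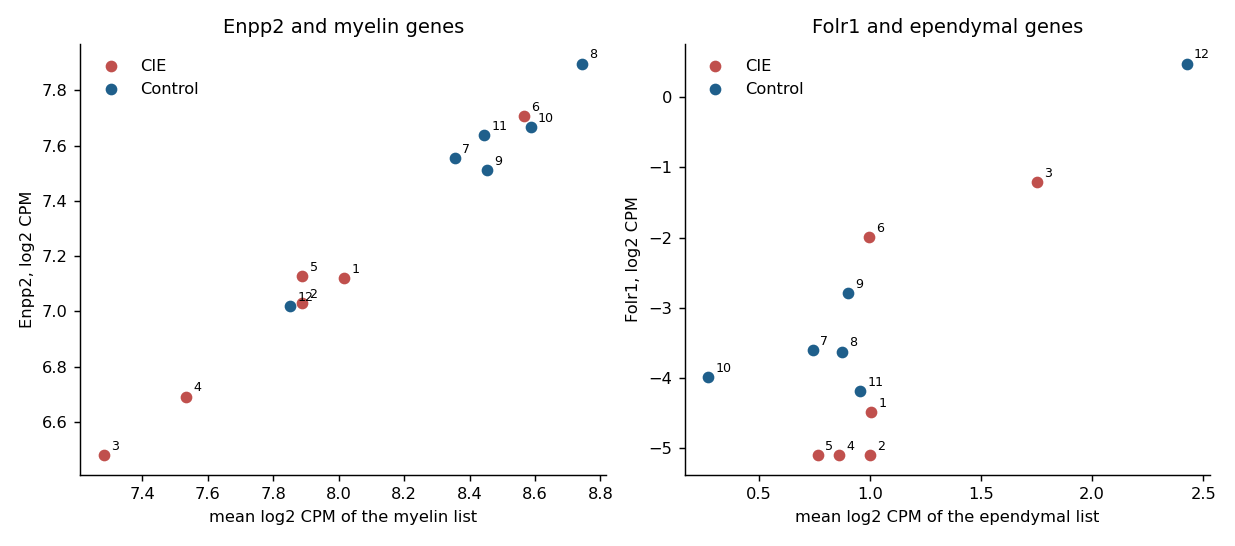
On the left, log2 CPM of *Enpp2* against the mean log2 CPM of 13 myelin markers, and on the right, log2 CPM of *Folr1* against the mean log2 CPM of the 10 tested ependymal markers. Each panel has 1 point per rat, numbered, red for CIE and blue for Control. The *Enpp2* points lie along a line (r = 0.99), whereas the *Folr1* relation (r = 0.80) is carried by Control rat 12 and CIE rat 3 and falls to 0.07 without them.

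Genes of lysophosphatidic acid signalling, on which autotaxin acts, fell in part. Of 12 listed genes 11 were tested, 3 fell and none rose at a nominal *p* value below 0.05, none passed 5% FDR, and the median log2 fold change was -0.05. *Enpp6*, a choline phosphodiesterase of maturing oligodendrocytes, fell from 9.15 ± 2.0 to 5.55 ± 1.5 CPM (log2 fold change -0.72, SE 0.19, FDR 0.182). The receptor *Lpar1* fell from 102 ± 16.1 to 66.4 ± 23.3 CPM (log2 fold change -0.61, SE 0.19, FDR 0.303). Like *Enpp2*, *Lpar1* was lowest in CIE rats 3 and 4 (41.5 and 51.4 CPM), highest in the CIE group in rat 6 (109 CPM), and lowest in the Control group in rat 12 (77.8 CPM). The receptor *Lpar4* fell as well (log2 fold change -0.36, FDR 0.474), while *Lpar6* was listed at 0 in every rat. *Plpp3*, a phosphatase that degrades lysophosphatidic acid and the most abundant gene of the list, was at 283 ± 23.9 CPM in Control and 285 ± 23.1 CPM in CIE rats (FDR 0.981).

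*Kl* encodes klotho, the co-receptor through which FGF23 signals, which is also shed into cerebrospinal fluid. It had 2323 counts over the 12 rats. Its lowest, median and highest levels were 1.68, 2.24 and 4.33 CPM among CIE rats and 1.53, 3.39 and 3.58 CPM among Control rats. The ranges overlapped, and the highest of the 12 rats was CIE rat 3 and the lowest was Control rat 10. The other 5 Control rats lay between 2.84 and 3.58 CPM. The means were 2.59 ± 0.977 and 3.04 ± 0.785 CPM (SD, n = 6 each), and the difference did not pass either test (log2 fold change -0.23, SE 0.25, edgeR *p* = 0.370, FDR 0.863, exact permutation *p* = 0.394).

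The log2 CPM of *Kl* had an r of 0.54 with the mean of 7 neuronal markers (permutation *p* = 0.0649, adjusted *p* = 0.149, Spearman's rho 0.53, permutation *p* = 0.0808), which was 0.28 without CIE rats 6 and 1. None of these 7 markers passed the nominal threshold. Those with the smallest *p* values were *Slc32a1* (log2 fold change -0.16, FDR 0.701) and *Stmn2* (-0.17, FDR 0.724). Of 10 genes of the FGF receptor and klotho-shedding system, all tested, 1 fell and none rose at a nominal *p* value below 0.05, with a median log2 fold change of -0.10. This was *Adam17*, a protease that can release klotho from the membrane, which fell from 30.9 ± 1.86 to 23.9 ± 3.39 CPM (log2 fold change -0.37, SE 0.087, FDR 0.124). *Fgfr4* had the next smallest *p* value (0.401 ± 0.119 in the Control and 0.574 ± 0.199 CPM in the CIE group, FDR 0.706).

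*Aqp1*, the water channel of the apical membrane of the choroid epithelium, was scarce, with 1 to 50 counts per rat and 308 in all. Its lowest, median and highest levels were 0.0123, 0.290 and 0.506 CPM among CIE rats and 0.302, 0.441 and 0.724 CPM among Control rats. CIE rats 1, 5 and 6 lay below every Control rat, and CIE rats 2, 3 and 4 lay inside the Control range. CIE rat 6, the lowest, had 1 count. The means were 0.274 ± 0.170 and 0.498 ± 0.185 CPM (SD, n = 6 each), and the difference did not pass either test (log2 fold change -0.87, SE 0.51, edgeR *p* = 0.109, FDR 0.709, exact permutation *p* = 0.0628).

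Vessel and blood markers were set beside *Aqp1* because those cells use it too. The 6 tested red cell markers had a median log2 fold change of -0.82. Of these, 3 fell at a nominal *p* value below 0.05 and 1 of them, *Slc4a1* (4.83 ± 1.59 in the Control and 0.785 ± 0.599 CPM in the CIE group), passed 5% FDR (0.0263), with *Alas2* next (log2 fold change -1.0, FDR 0.0652). The summed level of all 7 listed red cell markers did not overlap, at 6.75 to 13.1 CPM among CIE rats and 16.6 to 24.6 CPM among Control rats. How often sums of other genes are free of overlap was not computed. As the groups formed separate clusters, r with *Aqp1* is given only within them, although the relation over 12 rats had been planned and counts among the 11 adjusted. It was -0.55 in the CIE group (exact permutation *p* = 0.239) and 0.64 in the Control group (exact permutation *p* = 0.167). With the mean of 10 endothelial markers, of which 2 rose and 5 fell at a nominal *p* value below 0.05, *Aqp1* had an r of -0.08 (permutation *p* = 0.847) and a rho of 0.19 (permutation *p* = 0.558). The endothelial markers with the smallest *p* values were *Kdr* (log2 fold change -0.92, FDR 0.0116) and *Abcg2* (0.82, FDR 0.169). Their sums were 281 to 365 CPM among CIE rats and 297 to 375 CPM among Control rats. The part of blood or vessels in the level of *Aqp1* was not tested beyond these values.

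Among 10 other aquaporins, 3 passed the filter. *Aqp4*, the astrocyte water channel and the most abundant of them, fell from 416 ± 47.3 to 343 ± 54 CPM (log2 fold change -0.28, SE 0.10, FDR 0.448), *Aqp9* had a log2 fold change of -0.15 (FDR 0.826), and *Aqp12a* was listed at 0 in every rat. *Aqp4* was the sole one of 6 astrocyte markers to pass the nominal threshold, and *Slc1a2* had the next smallest *p* value (log2 fold change -0.15, FDR 0.784).

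*Sostdc1* encodes a secreted antagonist of BMP and Wnt signalling. It had 8 to 84 counts per rat, with lowest, median and highest levels of 0.123, 0.388 and 0.763 CPM among CIE rats and 0.310, 0.631 and 0.990 CPM among Control rats. CIE rats 1 and 6 were below every Control rat, Control rat 12 was the highest of all, and the other rats were mixed. The means were 0.395 ± 0.234 and 0.626 ± 0.287 CPM (SD, n = 6 each), and the difference did not pass either test (log2 fold change -0.68, SE 0.43, edgeR *p* = 0.139, FDR 0.739, exact permutation *p* = 0.167). Of 11 tested genes of BMP and Wnt antagonism and its receptors, 1 rose and 1 fell at a nominal *p* value below 0.05, and the median log2 fold change was -0.01. *Dkk3*, a secreted protein of the Dickkopf family, rose from 50.2 ± 10.3 to 75.6 ± 25.6 CPM (log2 fold change 0.59, FDR 0.373), and the Wnt co-receptor *Lrp5* fell from 16.9 ± 2.11 to 13.9 ± 1.62 CPM (log2 fold change -0.28, FDR 0.425). *Sost*, the closest relative of *Sostdc1*, had 9 counts in all and was not tested.

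*Folr1*, the folate receptor that carries folate across the choroid epithelium, and *Clic6*, of the chloride intracellular channel family, were set apart by 1 rat. *Folr1* had 167 counts in all, of which Control rat 12 had 102, CIE rat 3 had 26 and CIE rat 6 had 18, while CIE rats 2, 4 and 5 had 0. Its lowest, median and highest levels were 0, 0.00769 and 0.402 CPM among CIE rats and 0.0258, 0.0526 and 1.36 CPM among Control rats. The other 5 Control rats lay between 0.0258 and 0.115 CPM. A count of 0 allows 0.0432 to 0.050 CPM in CIE rats 2, 4 and 5, a limit below the values of 4 Control rats and not of the other two, and Control rats 7 and 8 among the 4 had 4 and 5 counts.

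*Clic6* had 257 counts in all, 112 of them in Control rat 12. Its lowest, median and highest levels were 0.0617, 0.304 and 0.327 CPM among CIE rats and 0.0674, 0.183 and 1.5 CPM among Control rats. Control rat 12 was the highest of all rats, and the other 5 Control rats, at 0.0674 to 0.245 CPM, lay inside the CIE range.

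The group comparison of both genes turned on that rat. *Clic6* averaged 0.234 ± 0.126 CPM in the CIE and 0.378 ± 0.552 CPM in the Control group (SD, n = 6 each, log2 fold change -0.71, SE 0.71, edgeR *p* = 0.338, FDR 0.852, exact permutation *p* = 0.877). Without Control rat 12 the log2 fold change was 0.60 (SE 0.52, FDR 0.839), and the Control mean was 0.155 CPM. *Folr1* averaged 0.107 ± 0.169 and 0.274 ± 0.535 CPM (exact permutation *p* = 0.706) and did not pass the filter. In an edgeR fit of all 29452 genes with counts its log2 fold change was -1.36 (SE 1.2, FDR 0.756), against 0.88 (SE 1.13) without Control rat 12. In these comparisons, with and without Control rat 12, neither direction passed a test in either gene.

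**Figure D3:**
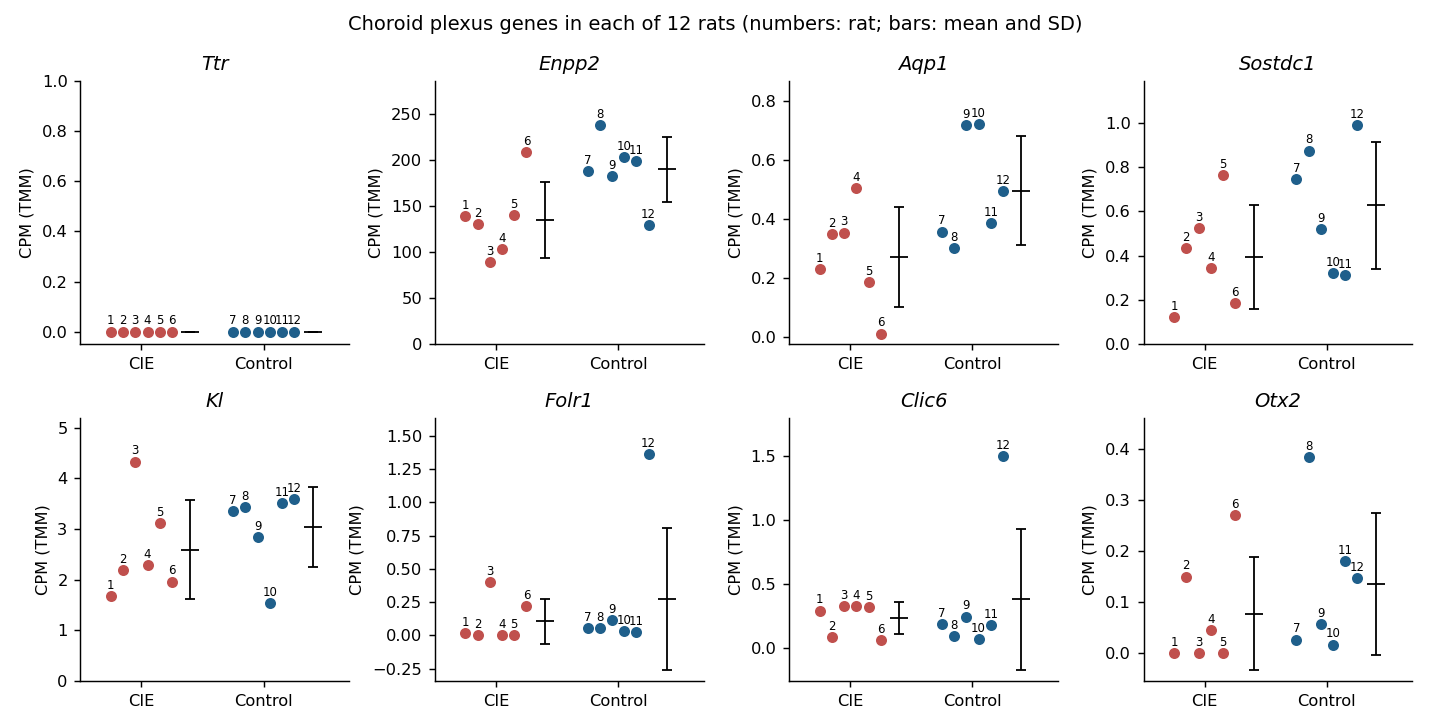
CPM of each of the 8 genes by rat, numbered 1 to 6 in the CIE group (red) and 7 to 12 in the Control group (blue), with the mean and SD of the 6 rats beside each group and a separate linear axis per gene. *Ttr* is at 0 throughout, *Enpp2* is lower in most CIE rats with Control rat 12 among them, and in *Folr1* and *Clic6* Control rat 12 (1.36 and 1.5 CPM) stands above all others.

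*Otx2* encodes a homeodomain transcription factor needed for the choroid plexus to form. It had 96 counts in all, in 9 of 12 rats, and did not pass the filter. The lowest, median and highest rats were at 0, 0.0223 and 0.271 CPM among CIE rats and 0.0168, 0.102 and 0.385 CPM among Control rats. CIE rats 1, 3 and 5 had 0 counts, and the most were in Control rat 8 (37) and CIE rat 6 (22), neither of which was high for *Clic6*. For *Folr1*, CIE rat 6 (0.222 CPM) came next after Control rat 12 and CIE rat 3, while Control rat 8 was at 0.0520 CPM. The means of *Otx2* were 0.0776 ± 0.111 and 0.136 ± 0.139 CPM (SD, n = 6 each, exact permutation *p* = 0.455), and the edgeR fit of all genes with counts gave a log2 fold change of -0.79 (SE 1.0, FDR 0.857). Of 5 related homeobox genes 3 were tested and none passed the nominal threshold, with *Otx1* at 1.43 ± 0.344 CPM in the Control and 1.63 ± 0.296 CPM in the CIE group (FDR 0.858) and *Lmx1b* next (FDR 0.945).

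None of 11 genes of folate transport and metabolism passed the nominal threshold, the smallest *p* values being those of *Ftcd* (log2 fold change -0.46, FDR 0.676) and the proton-coupled folate transporter *Slc46a1* (0.14, FDR 0.685). Of the 5 other *Clic* genes, all tested, *Clic4* fell from 35.6 ± 4.59 to 29.3 ± 5.1 CPM (log2 fold change -0.28, FDR 0.509), and *Clic3* had the next smallest *p* value (log2 fold change -0.26, FDR 0.776).

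Of the 5 choroid plexus genes tested, then, *Enpp2* alone passed the nominal threshold, beside 8.31% of all genes tested, and none passed 5% FDR, beside 0.363% of all genes tested. All 5 log2 fold changes were negative, with a median of -0.68, beside 0.00 over all genes. For *Clic6* the sign was set by Control rat 12, as given above. With the mean of the myelin markers as a covariate, *Enpp2* no longer passed the nominal threshold and the other 4 did, at log2 fold changes of -2.03 for *Aqp1*, -1.84 for *Clic6*, -1.22 for *Sostdc1* and -0.63 for *Kl*, none of them at 5% FDR (0.262 or more). The myelin mean was itself lower in the CIE group (7.86 against 8.41 log2 CPM). Control rat 12, with the most *Clic6* counts, had the lowest myelin mean of its group. CIE rat 6, with 1 count of *Aqp1*, had the highest of its group. How far the covariate fit rests on these rats was not tested. With limma-voom and sample quality weights together, *Sostdc1* (-0.97) and *Kl* (-0.45) passed the nominal threshold beside *Enpp2*, and *Clic6* was at -0.16.

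**Figure D4:**
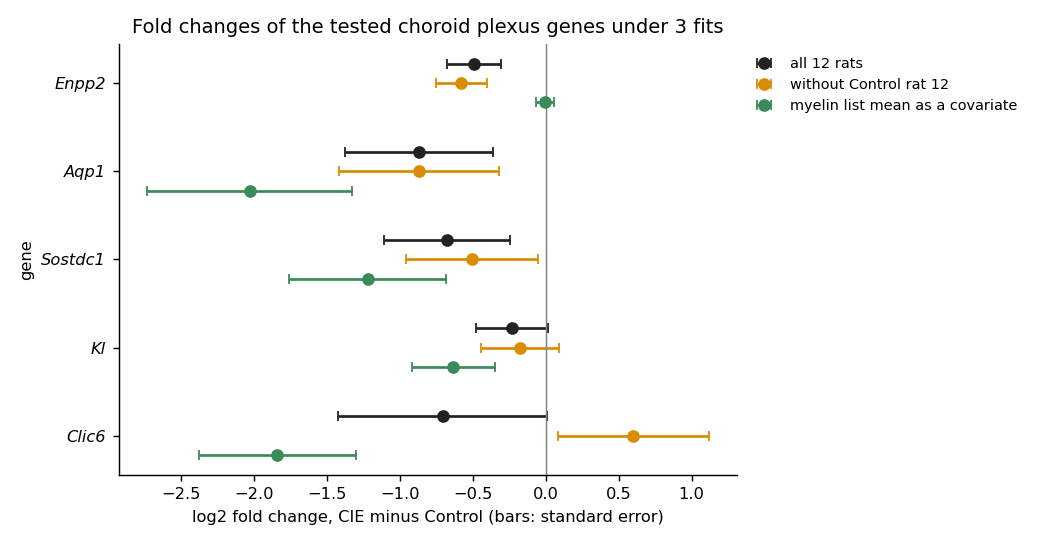
Log2 fold change, CIE minus Control, with its standard error for the 5 tested genes in edgeR fits of all 12 rats (black), without Control rat 12 (orange) and with the mean of the myelin markers as a covariate (green). *Enpp2* moved from -0.49 to -0.0051 with the covariate, and *Clic6* moved from -0.71 to 0.60 without Control rat 12 and to -1.84 with the covariate.

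The 8 genes were next compared with one another from punch to punch. Over the 21 pairs of the 7 genes with counts, r of log2 CPM across the 12 rats ran from -0.57 (*Enpp2* with *Clic6*) to 0.73 (*Sostdc1* with *Kl*), as a description in which all pairs share the same libraries. Without Control rat 12, *Sostdc1* with *Kl* was at 0.70, whereas *Folr1* with *Clic6* went from 0.48 to -0.09. The scarce genes hold few counts, so part of a low r may be counting error.

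Separate animals vary by more than counting error, and for the 7 genes the variance was set beside its Poisson value. This ratio takes each count as independent and grows with the number of counts, so it does not rank the genes by how much their levels varied. The variance of the counts within groups was 735 times the Poisson value for *Enpp2*, 18.5 times for *Kl*, 8.72 times for *Sostdc1*, 6.49 times for *Aqp1* and 11 times for *Otx2*. For *Folr1* it was 44.1 times and for *Clic6* 31.0 times, which became 10.1 and 3.77 times without Control rat 12. Beside the 500 tested genes nearest to it in abundance, the within-group SD of log2 CPM was above that of 93.4% for *Enpp2*, 90% for *Clic6*, 86.4% for *Aqp1*, 83.6% for *Kl* and 77% for *Sostdc1*. All 5 tested genes thus varied more between punches than most genes of like abundance. *Enpp2* ranked first by this share (SD 0.363 on the log2 scale, beside a median of 0.140), but its own SD was the smallest of the 5. The SD was 1.19 for *Clic6*, with Control rat 12 included, 0.996 for *Aqp1*, 0.793 for *Sostdc1* and 0.479 for *Kl*.

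Of a further 30 known choroid plexus genes, *Kcnj13*, the potassium channel of the choroid epithelium, was listed at 0 in all rats, although none of its 10 nearest genes was, and 29 had counts. The mean log2 CPM of the 28 that were tested was highest in Control rat 12 (1.74) and next in CIE rat 3 (1.54), and lay between 1.13 and 1.48 in the other 10 rats. In Control rat 12, 21 of the 29 were above the median of the other 11 rats and 8 were below it, with a median ratio of 1.30. The share of all genes above that median was not computed. Other lists went both ways, with 6 of 6 astrocyte, 6 of 7 red cell and 6 of 7 cortical markers above it. Of the myelin markers 0 of 13 were above it, and of the endothelial markers 1 of 10. Among the 28 choroid genes tested, 6 were highest of all rats in Control rat 12, beside 5.50% of all genes tested. By ratio to the median of the other rats, the genes farthest above were the cytokeratin *Krt8* (2.66 beside 0.218 CPM), the tight junction protein *Cldn2* (0.174 beside 0.0208 CPM, with 47 counts over all rats) and the homeobox gene *Msx1* (4.27 beside 0.568 CPM). Next came *F5* (0.468 beside 0.166 CPM), *Krt18* (1.99 beside 0.806 CPM), *Mfrp* (0.695 beside 0.303 CPM) and *Calml4* (1.44 beside 0.723 CPM). Of these, *Cldn2* was higher still in CIE rat 1 (0.185 CPM) and *Krt18* in CIE rat 3 (2.04 CPM). The potassium channel subunit *Kcne2* was at 3.28 beside 2.87 CPM, the bicarbonate transporter *Slc4a5* at 0.455 beside 0.369 CPM, and *Tmem72* at 1.18 beside 1.58 CPM. By the same ratio, the genes farthest below were *Steap1* (0.0802 beside 0.250 CPM), *Car14* (3.32 beside 5.87 CPM) and *Car12* (38.0 beside 63.9 CPM). Genes of this list thus lay above or below the other rats in that punch in unequal measure, and those named here were chosen after their values were seen.

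Markers of ciliated ependymal cells were high in the same punch. Of 12 listed markers, all with counts, 8 were highest of all rats there, 6 of them among the 10 tested, beside 5.50% of all genes tested. Of the 8 choroid plexus genes, 3 of the 7 with counts (*Sostdc1*, *Folr1* and *Clic6*) were highest there, 2 of them among the 5 tested. *Tmem212* was at 5.44 CPM in Control rat 12 beside a median of 0.0520 CPM in the other 11 rats, *Ak7* at 6.19 beside 0.259 CPM, and *Foxj1*, the master regulator of motile cilia, at 7.72 beside 2.76 CPM. CIE rat 3 came next for *Tmem212* (1.68 CPM), *Ak7* (1.45 CPM), *Foxj1* (3.83 CPM) and *Folr1* (0.402 CPM). The summed level of the 12 markers was 33.9 to 53 CPM among CIE rats and 27.7 to 78.9 CPM among Control rats. Between the groups none of the 10 tested passed the nominal threshold, with a median log2 fold change of -0.25, and the smallest *p* values were those of *Tekt4* (0.67, FDR 0.727) and *Cfap126* (-0.20, FDR 0.739).

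**Figure D5:**
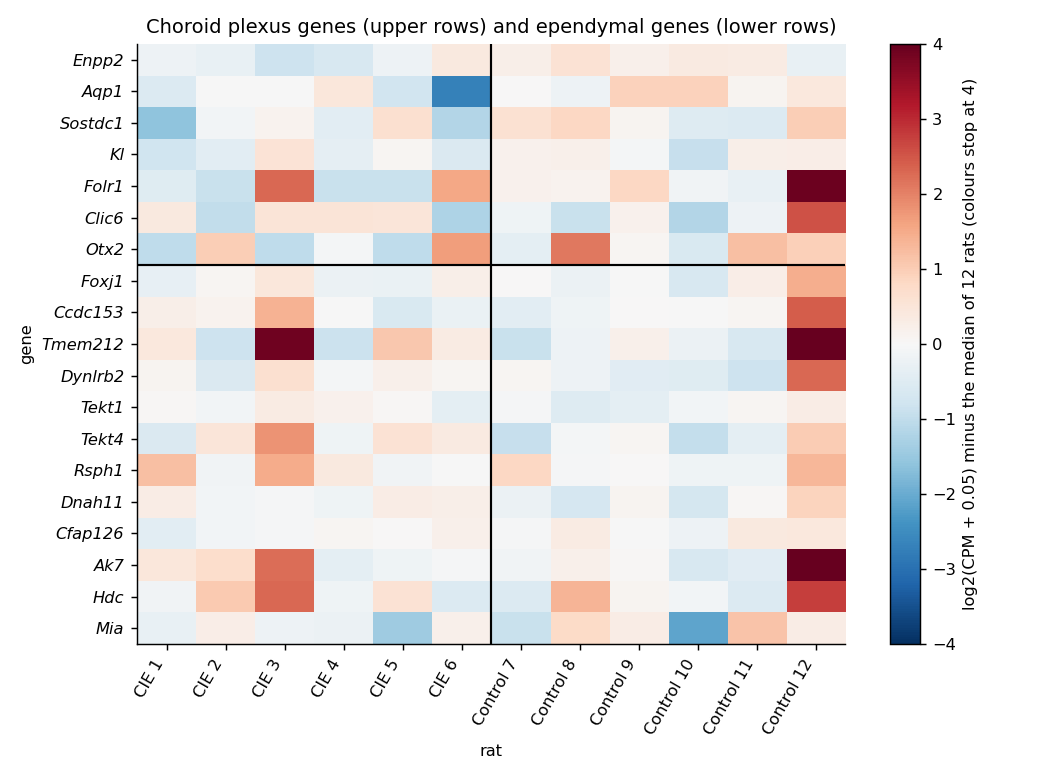
Log2(CPM + 0.05) of 7 choroid plexus genes (upper block) and 12 ependymal markers (lower block) in each rat, minus the gene's median over 12 rats, in red where higher and blue where lower, with the colours ending at 4. Control rat 12 is high in *Folr1*, *Clic6* and most ependymal markers and not in *Enpp2*, and CIE rat 3 is high in *Folr1*, *Tmem212* and *Ak7*.

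Relations with the mean of the 10 tested ependymal markers, which leaves out *Tmem212* and *Hdc*, were computed after these values were seen. They stand in place of those planned with *Ttr*. *Folr1* had an r of 0.80 (permutation *p* = 0.00464, adjusted *p* = 0.0255) but a rho of 0.39 (permutation *p* = 0.205), and *Clic6* an r of 0.76 (permutation *p* = 0.0104, adjusted *p* = 0.0381) but a rho of 0.31 (permutation *p* = 0.331). Both rest on Control rat 12 and CIE rat 3, without which r was 0.07 for *Folr1* and 0.23 for *Clic6*. The other 5 had adjusted *p* values of 0.149 or more, with r of -0.50 for *Enpp2*, 0.53 for *Kl*, 0.33 for *Sostdc1*, 0.01 for *Aqp1* and 0.14 for *Otx2*. By likeness over the 12 rats the leading genes were *Lca5l*, *Spata18* and *Dnah6* for *Folr1* (r 0.89 to 0.91), *Dnah6* being a dynein of cilia, and *Nol4* and *Msx1* for *Clic6* (r 0.90 and 0.89). For *Kl* the leading gene was *Pex14* (0.96), for *Aqp1* *Larp7* (0.94), for *Sostdc1* *Irf2bp1* (0.90) and for *Otx2* *Rab22a* (0.88). The part of ependymal tissue in the levels of *Folr1* and *Clic6* was not tested beyond these values.

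Checked against their label, the 8 genes did not rise and fall together from punch to punch. *Ttr* could not be read, and *Enpp2*, which had the most counts, followed the myelin markers and was lowest of the Control group in rat 12. In that rat *Sostdc1*, *Folr1* and *Clic6* were highest of all rats. Of the other choroid genes, 21 of 29 were above the median of the other 11 rats there and 8 were below it. The share of all genes above that median was not computed. Other lists went both ways, with 6 of 6 astrocyte and 0 of 13 myelin markers above it. How much choroid plexus a punch held was not tested.

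Of the 28 other choroid genes tested, 2 fell and none rose at a nominal *p* value below 0.05, beside 8.31% of all genes tested. Their median log2 fold change was 0.11. At 5% FDR 1 passed, beside 0.363% of all genes tested. This was *Igf2*, a growth factor that choroid plexus, meninges and vessels make. Its lowest, median and highest levels were 17.2, 23 and 33.4 CPM among CIE rats and 36.4, 46.5 and 67.9 CPM among Control rats, so the groups did not overlap. It fell from 48.8 ± 11 to 24.1 ± 6.17 CPM (SD, n = 6 each, log2 fold change -1.02, SE 0.17, FDR 0.0207). The share of all genes tested whose groups did not overlap was not computed. *Slc4a2*, an anion exchanger, fell from 38.2 ± 2.38 to 31.3 ± 5.94 CPM (log2 fold change -0.29, FDR 0.478). The most abundant gene of the list, the serotonin receptor *Htr2c*, which neurons also use, was at 201 ± 47.2 CPM in Control and 210 ± 47 CPM in CIE rats (FDR 0.948).

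Markers of meningeal fibroblasts also fell in part in the CIE group, and their relation to *Igf2* from punch to punch was not computed. Of 10, all tested and none at 0, 6 fell at a nominal *p* value below 0.05, none rose, and 2 passed 5% FDR, the genes of the collagens *Col3a1* (log2 fold change -1.07, SE 0.19, FDR 0.0243) and *Col1a1* (-1.04, SE 0.19, FDR 0.0270). Their summed level lay between 38.4 and 84.8 CPM among CIE rats and between 83 and 117 CPM among Control rats. Their part in the result for *Igf2* was not tested. In the remaining lists, 3 of the 10 CeA neuron markers fell at a nominal *p* value below 0.05, with those of *Crh* (log2 fold change -0.45, FDR 0.472) and *Tac2* (-0.37, FDR 0.542) the smallest, and 2 of the 7 cortical markers rose, *Rtn4rl2* (1.86, FDR 0.5) and *Neurod2* (1.90, FDR 0.575).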

How the data were processed

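Poly-A RNA of CeA punches was measured by RNA-Seq in 12 rats, with 1 library per rat. Per the paper's methods and the submitters' processing notes, the authors mapped paired reads of 75 bases to Rnor_6.0 with BWA, counted them per gene with HTSeq and tested with DESeq2 (v1.26). The deposited values are raw counts per gene, not normalized and not filtered. The gene annotation and the strand and overlap settings are not given in the sources used here, so genes with near copies or overlapping partners may share reads. Groups follow the treatment in the labels. Total counts lay between 39082548 and 95647601 per rat.

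The counts were normalized by TMM and filtered by filterByExpr, and 20944 of 37209 genes were compared by the quasi-likelihood F test of edgeR without covariates. FDR is the Benjamini-Hochberg adjusted *p* value over these genes, and log2 fold changes are CIE minus Control, whose SE is their size over the root of the F statistic. CPM use TMM library sizes, log2 CPM a prior count of 2. Single means were compared with exact permutation tests over rats, which cannot go below *p* = 0.00216, and correlations with 100000 permutations. Of 12 planned relations, 8 involved *Ttr* and could not be computed. Intervals and the 3-count limit for a 0 cover counting error only, with each count taken as independent. Total counts exceeded the paper's average number of reads per sample in every rat but Control rat 11. Whether each count was a separate fragment was not tested. The edgeR test was checked on simulated data.

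The 8 genes and the 18 other gene lists were chosen with earlier results of these data known. The text names all 8 genes, the 2 tested genes with the smallest *p* of each other list, and its most abundant gene in places. The 5 genes most like *Ttr* were to be named, and as *Ttr* had no counts, genes most like the other 7 are given instead, a choice made after values were seen, and 1 of these genes is not reported here. Gene names and gene order came from RefSeq (GRCr8), whose coordinates were not used because the build differs. *Cfap126* and *Tac2* stand in the count table under the older or newer symbols *RGD1562658* and *Tac3*. Of 14 listed myelin genes, *Trf* was not found. Alternatives were DESeq2, DESeq2 size factors, no filter, a filter of 10 counts for each rat, unscaled library sizes, limma-voom with sample quality weights, a myelin covariate, leaving out each rat, and linear or unscaled CPM for correlations. An ependymal covariate and leaving out CIE rat 3 with Control rat 12 were added after values were seen. R 4.3.3, edgeR 4.0.16, limma 3.58.1, DESeq2 1.42.0, Python 3.11.15, scipy 1.17.1 and matplotlib 3.10.9 were used.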

Additional observations from a re-analysis of the deposited data

Results flagged for a closer look

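Within each group of 6 rats, the highest and lowest rats were compared with the others for the 7 choroid plexus genes with counts and the 12 ependymal markers. A rat was marked for a gene where its gap to the nearest other rat was larger, as a part of the group's range, than Dixon's 95% value for 6 samples. The 38 such groups, each of 1 gene, held 15 marks, which fell on the same few rats. Chance marks about 1 in 20, or 1.9 here, if the values of a group are normally distributed. Several of these genes have few counts and uneven CPM, so that rate may not hold for them. The genes are not independent, since they come from the same libraries.

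Control rat 12 accounts for 9 of the 15, standing above the other 5 Control rats. These were *Folr1* (1.36 CPM, others 0.0258 to 0.115), *Clic6* (1.5 CPM, others 0.0674 to 0.245), *Foxj1* (7.72 CPM, others 1.75 to 3.36), *Ccdc153* (5.90 CPM, others 0.784 to 1.14), *Tmem212* (5.44 CPM, others 0.0133 to 0.0864), *Dynlrb2* (4.61 CPM, others 0.491 to 0.957), *Tekt4* (3.08 CPM, others 0.758 to 1.58), *Ak7* (6.19 CPM, others 0.152 to 0.312) and *Hdc* (0.441 CPM, others 0 to 0.135).

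CIE rat 3 stood above the other 5 CIE rats in 5, namely *Ccdc153* (2.86 CPM, others 0.677 to 1.26), *Tmem212* (1.68 CPM, others 0.0149 to 0.202), *Tekt4* (5.35 CPM, others 1.0 to 2.29), *Ak7* (1.45 CPM, others 0.193 to 0.466) and *Hdc* (0.309 CPM, others 0 to 0.10). In *Kl*, Control rat 10 stood below the other Control rats, at 1.53 CPM beside 2.84 to 3.58 CPM.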

How the results depend on the processing

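The direction of *Enpp2*, *Aqp1*, *Sostdc1* and *Kl* was lower in the CIE group under every alternative that gave a value. *Enpp2* stayed past the nominal threshold in 20 of 21 alternatives and past 5% FDR in none (lowest FDR 0.0807, without CIE rat 6). *Clic6* changed sign in 3 of 20. With 0 to 112 counts per rat, *Aqp1*, *Sostdc1*, *Folr1*, *Clic6* and *Otx2* are limited by depth, and a filter of at least 10 counts in every rat left no value for *Aqp1*, *Sostdc1* and *Clic6*. No paired analysis was possible because the groups share no rat numbers. No scaling moved the median of all genes by more than 0.02 on the log2 scale.

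At 5% FDR, 76 genes became 274 with DESeq2, which also tested more genes (29389), 234 with limma-voom and sample quality weights, which changes the method and the weighting at once, and 37 with the myelin covariate. At the nominal threshold 1740 became 3596 with weighted limma-voom. The count of choroid plexus genes past it went from 1 to 3 with weighted limma-voom and 4 with the myelin covariate. With weighted limma-voom, the log2 fold change was -0.97 for *Sostdc1* (FDR 0.268) and -0.45 for *Kl* (FDR 0.269), both past the nominal threshold. With the myelin covariate it was -0.0051 for *Enpp2* (FDR 0.986), no longer past it, and -2.03 for *Aqp1* (FDR 0.334), -1.22 for *Sostdc1* (FDR 0.423), -0.63 for *Kl* (FDR 0.430) and -1.84 for *Clic6* (FDR 0.262), all past it. The myelin mean was itself lower in the CIE group (7.86 against 8.41 log2 CPM). *Clic6* was at 0.045 with the ependymal covariate (FDR 0.985) and at 0.49 without CIE rat 3 and Control rat 12 (FDR 0.761).

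Leaving out 1 rat at a time, the genes at 5% FDR numbered 34 (without Control rat 9) to 154 (without CIE rat 6), those at the nominal threshold 1347 to 2811, and the choroid plexus genes past it 1 to 2. The log2 fold change ranged from -0.66 to -0.39 for *Enpp2*, -1.14 to -0.61 for *Aqp1*, -0.98 to -0.49 for *Sostdc1* (past the nominal threshold without CIE rat 5, FDR 0.561), -0.44 to -0.13 for *Kl* and -0.92 to 0.60 for *Clic6*, which was positive without Control rat 12 alone. On linear CPM the r of *Aqp1* with endothelial markers was 0.22 in place of -0.08. The r of *Kl* with neuronal markers was 0.78 on CPM scaled by library size only (permutation *p* = 0.00312). The causes of these changes were not tested.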

Other observations

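*Bmp4*, a BMP ligand of the list set beside *Sostdc1*, was at 0.468 CPM in Control rat 12 and 0.714 CPM in CIE rat 4, while the other 10 rats lay between 4.65 and 12.5 CPM. It was picked out after its values were seen. The folate enzyme *Shmt1* was also lowest in Control rat 12, at 1.42 CPM, beside a median of 2.87 CPM in the other 11 rats.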
